A study of Caenorhabditis briggsae with 12 samples.

Results

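Adult hermaphrodites of the nematode Caenorhabditis briggsae were compared at day 6 and day 1 of adulthood by RNA-seq of whole animals. The comparison was defined by age alone and took in 6 of the 12 libraries of the series, 3 from day 6 and 3 from day 1. The other 6 libraries, from days 3 and 9, entered no test here. Both groups were AF16, the wild-type laboratory strain, raised on E. coli OP50 at 20 °C. No transgene, mutation or drug separated them. Populations were synchronised by bleaching, and from then on adults were parted from their larvae by settling in buffer and by picking. Each library came from whole animals, so germ line, soma and any embryos still inside the mother were read together.

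C. briggsae hermaphrodites fertilise their own eggs. As in C. elegans, the germ line first makes sperm and then switches to oocytes, and self-fertility ends when the stored sperm are used up. Young adults therefore carry an active germ line and developing embryos, whose transcripts can make up a large part of whole-worm RNA. The title of the series speaks of a shift after reproduction, and day 6 against day 1 sets a later age against the first day of adult life. In whole animals, fewer cells of a type and less RNA per cell cannot be told apart.

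The deposited table held raw counts for 23169 gene identifiers, of which 15208 had enough counts to be tested. Totals were 24594935, 22703555 and 33079955 counts in day 6 replicates 1, 2 and 3, against 33732477, 30539567 and 29696676 in day 1 replicates 1, 2 and 3. The file pairs its identifiers with no symbols and none of them matched the reference table, so genes are grouped here by how they changed, and no pathway or tissue marker could be looked up. Levels are given as CPM, the counts of a gene relative to the library total scaled up to a common depth. Unless stated otherwise they were adjusted with TMM factors, which are meant to make the bulk of genes comparable between libraries.

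Transcript levels at day 6 differed from day 1 for most of the expressed genome. Of 15208 tested genes, 11700 were called, or 76.9%, at a Benjamini-Hochberg adjusted p under 0.05 in edgeR's quasi-likelihood test. At day 6, 5448 genes were higher (35.8% of those tested) and 6252 were lower (41.1%). The directions were close in number but not in size. The median log2 fold change was 0.63 for the higher genes and -1.49 for the lower genes, against -0.11 over all tested genes. At least 2-fold changes made up 19.8% of the rises (1079 genes) and 69.0% of the falls (4316 genes). The libraries themselves were well separated. Every day 6 library exceeded every day 1 library for 5627 genes, 37.0% of those tested, and the reverse held for 6570 genes, 43.2%. Where upper-quartile scaling was used in place of TMM, the median of all genes moved to -0.30, and 4277 genes were higher and 7144 lower.

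**Figure D1:**
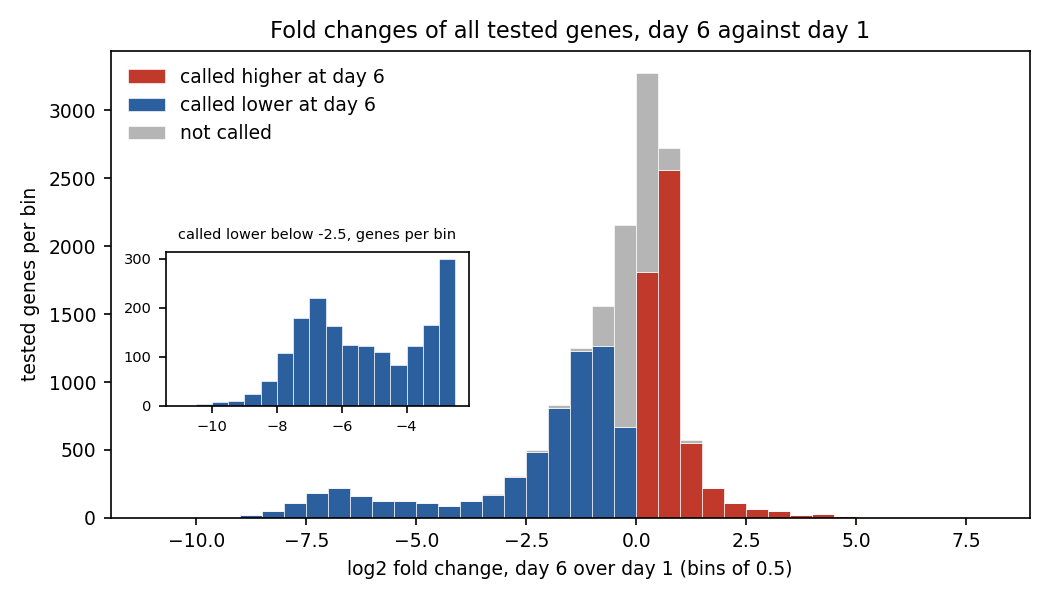
Number of tested genes by log2 fold change (day 6 over day 1, bins of 0.5), coloured by call in edgeR's test, with the strongly lower genes enlarged in the inset (same axes). The rises crowd between 0 and 1, and the falls spread out past -8 with a separate hump between -7 and -6.5, where 221 genes lie.

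The falls came in more than 1 kind. Of the lower genes, 1936 fell by less than 2-fold, 2822 by 2- to 8-fold, and 1494 by 8-fold or more, the last being 9.82% of all tested genes. In bins of 0.5 on the log2 scale, the number of called falls decreased from 1225 genes between -1.5 and -1 to 84 genes between -4.5 and -4. It then went up again to a second peak of 221 genes between -7 and -6.5, of which 213 had a count at day 6. A group of deeply lowered genes thus stood apart from the main body of falls, as the distribution of fold changes shows. The 1494 genes lowered 8-fold or more had a median level of 0.128 CPM at day 6, against 7.62 CPM at day 1. Their median log2 fold change was -6.05, or -5.82 with the 80 genes that had 0 counts at day 6 set to the limit of 3 counts over the 3 libraries. The days did not overlap for any of these 1494 genes, which the call nearly fixes, since the same held for 99% of all genes called lower. Over all tested genes, 43.2% had every day 6 library below every day 1 library.

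Deeply lowered genes ranged widely in their day 1 expression. Of the 1494, 638 had stood at 10 CPM or more at day 1, 103 at 100 CPM or more and 17 at 1000 CPM or more, with a highest mean of 4805 CPM. At day 6, 172 of them, or 11.5%, still stood at 1 CPM or more. With the 80 genes at 0 counts set to their limit, the falls passed 32-fold for 970 genes, 64-fold for 702 genes and 256-fold for 52 genes. The fitted values, which for those 80 depend on the fit, gave 1013, 766 and 95. The 80 tested genes without a count at day 6 had day 1 means of up to 5.84 CPM and a median of 1.14 CPM. For the most abundant of them day 1 was at least 157-fold above the limit of 3 counts over the day 6 libraries, which covers counting error only.

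Genes lowered 32-fold or more kept a small fraction of their day 1 level, with medians of 0.690% to 0.974% across classes of that level. The 32-fold limit, which itself caps the fraction, and the bins of day 1 level were chosen after the levels had been seen, so these values are a description. At day 6 the 511 genes under 10 CPM at day 1 kept a median of 0.974% of the day 1 mean (quartiles 0.432% and 1.71%). The 277 genes with 10 to 30 CPM kept 0.928% (0.637% and 1.33%). The 141 genes with 30 to 100 CPM kept 0.806% (0.619% and 1.16%), and the 84 genes with 100 CPM or more kept 0.690% (0.547% and 1.00%). In single day 6 libraries the order of the lowest classes was the reverse. Genes under 10 CPM had medians of 0.519%, 0.645% and 0.549% in replicates 1, 2 and 3. Those with 10 to 30 CPM had 0.893%, 0.919% and 0.910%. In the plot of day 6 against day 1 levels these genes form a band below the line of equal levels, wider for genes under 10 CPM. The residue was alike in the day 6 libraries. Over the 1013 genes with a fitted fall this large its median was 0.729%, 0.779% and 0.731% of the day 1 mean in replicates 1, 2 and 3. Over the 933 of them with a count at day 6 it was 0.802%, 0.872% and 0.818%.

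**Figure D2:**
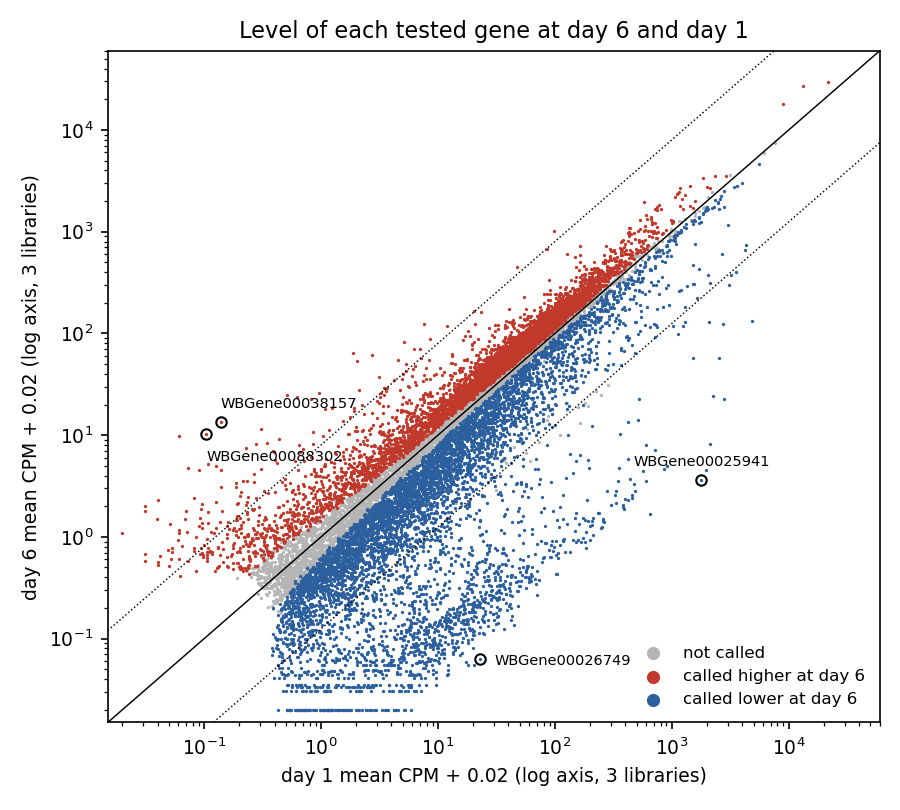
Mean CPM at day 6 against mean CPM at day 1 for the 15208 tested genes (log axes, 0.02 added, 3 libraries a day), coloured by call, with the line of equal levels, dotted lines at 8-fold, and the 4 named genes ringed. Genes lowered 32-fold or more form a band about 2 powers of 10 below the line. Most other lowered genes lie within the 8-fold line, and most rises lie close above the line of equal levels.

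The rises were mostly small and shared by many genes. As CPM is relative, they are rises in the share of counts as scaled here, and absolute amounts were not tested. Their number also moved with the scaling, to 4277 with upper-quartile factors. Of the 5448 higher genes, 4369 rose by less than 2-fold, with a median log2 fold change of 0.55 (quartiles 0.40 and 0.72). The whole set of higher genes had a median 0.74 above that of all tested genes. Another 945 genes rose 2- to 8-fold, and 134 rose 8-fold or more, 0.881% of those tested. The strongly raised genes started low. Their median level was 2.78 CPM at day 6, against 0.170 CPM at day 1. At day 6, 37 of the 134 stood at 10 CPM or more, 5 at 100 CPM or more and 1 at 1000 CPM or more, with a highest mean of 1019 CPM. In the whole table, 61 genes had a count in each day 6 library and 0 counts at day 1, and 404 genes had the reverse. Of these, 1 and 80 passed the count filter. The number raised 8-fold or more followed the filter on low counts, with 228 genes without a filter and 83 with 1 CPM asked for in at least 3 libraries.

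The genes with the largest changes were taken from those called with no overlap between the days and a mean of at least 10 CPM on the higher day. WBGene00026749 and WBGene00025941 had the largest fitted falls, in an order that turned under limma-voom and without day 6 replicate 1 or 3. The first held almost no counts at day 6. WBGene00026749 stood at 0.0408, 0.0882 and 0 CPM in day 6 replicates 1, 2 and 3, against 22.2, 24.9 and 22.0 CPM in those of day 1. Its day 6 libraries held 3 counts in all and its day 1 libraries 2189, a ratio of 606 with an exact 95% counting interval of 207 to 2941. On the log2 scale the change was -9.09 ± 0.30 (SE, edgeR adjusted p = 7.65e-09). With so few counts at day 6 this value moved with single libraries, to -10.05 without day 6 replicate 2 and -8.44 without day 6 replicate 3.

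WBGene00025941 was far more abundant at day 1 and kept counts in every library. It stood at 4.24, 4.24 and 2.29 CPM in the day 6 libraries, against 1671, 1917 and 1777 CPM in the day 1 libraries. All day 6 values were far below all day 1 values. On the log2 scale the change was -8.99 ± 0.24 (SE, edgeR adjusted p = 4.96e-08). Its mean was 3.59 ± 1.13 CPM on day 6 against 1789 ± 123 CPM on day 1 (SD, n = 3 libraries each), which lies below the band of genes that kept near 1% of their level.

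WBGene00088302 and WBGene00038157 had the largest fitted rises, which differed by less than their SE. Their order turned under limma-voom, without day 6 replicate 1 or 2 and without day 1 replicate 3. WBGene00088302 stood at 14.1, 14.3 and 2.38 CPM in day 6 replicates 1, 2 and 3, against 0.0861, 0.0988 and 0.0666 CPM in those of day 1. Replicate 3 of day 6 was well under the other two, but still above every day 1 library. On the log2 scale the change was 6.85 ± 1.15 (SE, edgeR adjusted p = 0.00311). The day 1 libraries held 8 counts in all.

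WBGene00038157 rose to a like degree with less spread at day 6. It stood at 14.4, 15.4 and 10.4 CPM in the day 6 libraries, against 0.0574, 0.0329 and 0.266 CPM in the day 1 libraries. Of its 11 day 1 counts, 8 were in replicate 3. On the log2 scale the change was 6.80 ± 0.40 (SE, edgeR adjusted p = 9.89e-07), or 8.05 without day 1 replicate 3.

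**Figure D3:**
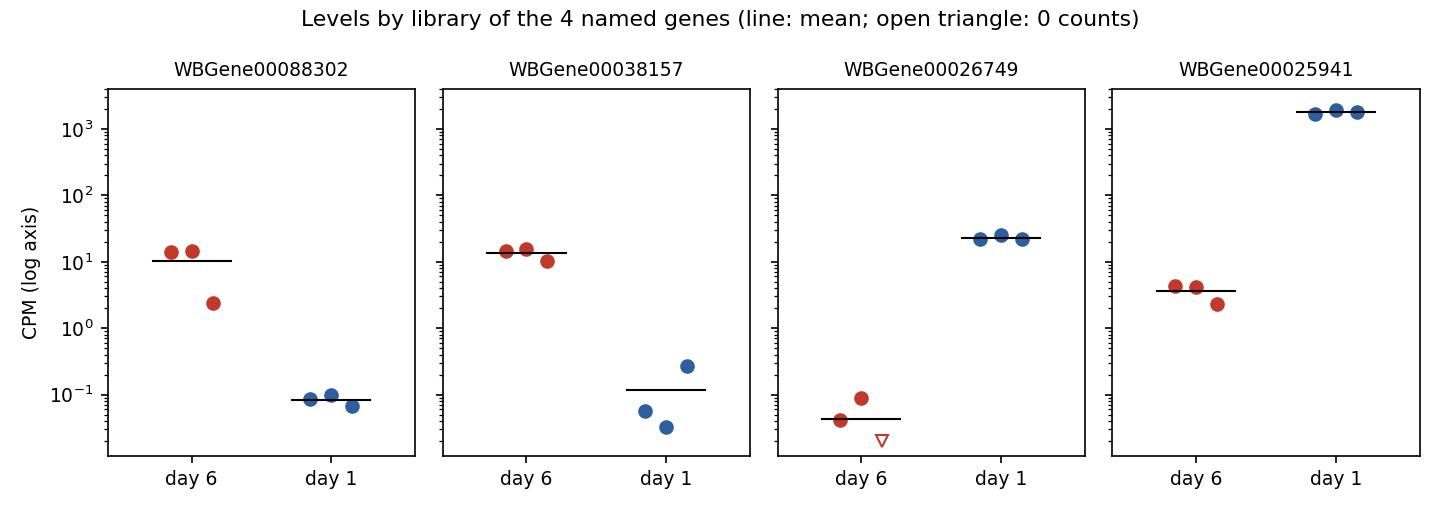
CPM (log axis) of the 4 named genes in the 3 day 6 libraries (red) and the 3 day 1 libraries (blue), with the mean as a line and a library at 0 counts as an open triangle at the foot. The 4 genes were chosen to have no overlap between the days, and day 6 replicate 3 is the lowest day 6 library in each.

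The change in single genes added up to a large exchange of the counted RNA. The classes were called in these same libraries, which fixes the direction of the exchange, so the shares describe its size only. Genes called lower took up 18.3%, 18.9% and 18.8% of all counts at day 6, against 38.9%, 41.0% and 40.4% at day 1. Genes called higher took up 65.5%, 65.0% and 65.6% at day 6, against 44.4%, 42.4% and 42.9% at day 1. Most of this gain lay in small rises. Genes raised by less than 2-fold took up 52.3% ± 0.69 at day 6, against 37.4% ± 1.00 at day 1 (SD over 3 libraries, n = 3). Those raised 2- to 8-fold took up 12.7% ± 0.86 at day 6 against 5.80% ± 0.018 at day 1, and those raised 8-fold or more 0.322% ± 0.0080 against 0.0293% ± 0.0013. Among the falls, the genes lowered 8-fold or more took up 0.276% ± 0.036 at day 6 against 8.14% ± 0.21 at day 1. Those lowered 2- to 8-fold took up 3.20% ± 0.21 at day 6 against 11.3% ± 0.48 at day 1, and those lowered by less than 2-fold 15.2% ± 0.27 against 20.6% ± 0.48. Over all genes 22.6 percentage points of the counts moved between genes. It took 338 genes to make up 50% of the gain and 137 genes to make up 50% of the loss.

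**Figure D4:**
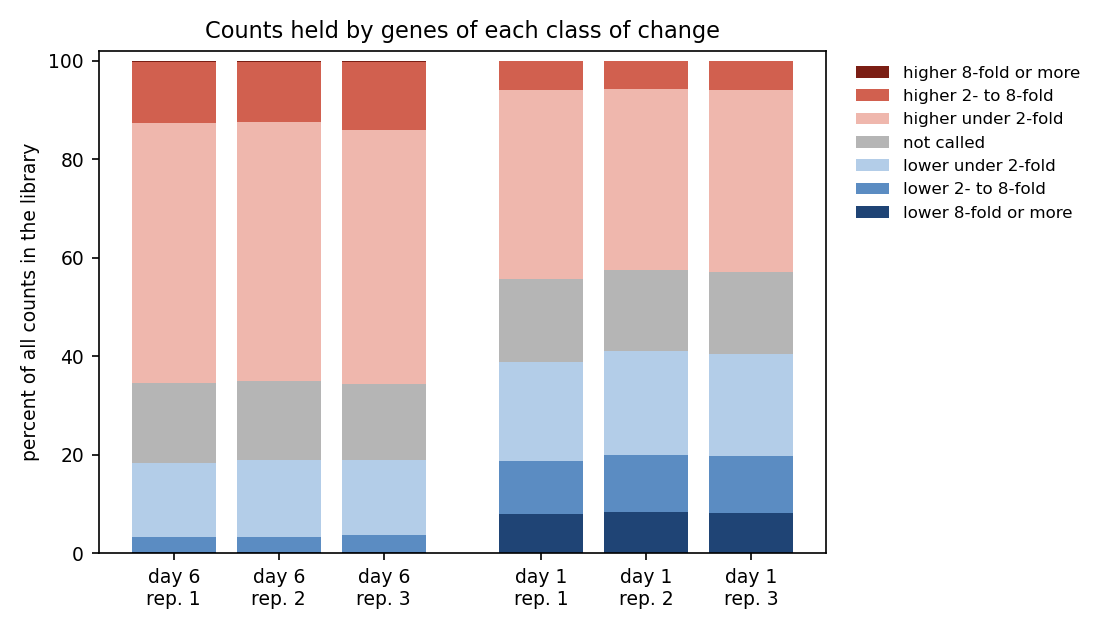
Percent of all counts held by genes of each class of change in every library, day 6 on the left and day 1 on the right, with each bar adding up to nearly 100. The lowered genes together hold under 19% of each bar at day 6 and about 40% at day 1, and most of the gain lies in genes raised by less than 2-fold.

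Fewer genes were found at appreciable levels at day 6. Levels in this paragraph are CPM without TMM factors. A level of 1 CPM or more was reached by 11336, 11414 and 11489 genes in the day 6 libraries, against 13315, 13274 and 13332 in the day 1 libraries. For 10 CPM or more the numbers were 7098, 7110 and 7116 at day 6 and 8150, 8089 and 8153 at day 1. The days did not overlap in either count. An exact two-sided permutation test of 3 libraries against 3 gave p = 0.1 for each, the smallest it can give. The number of genes that together held 50% of the counts was 645, 644 and 574 at day 6, against 601, 533 and 561 at day 1 (exact permutation p = 0.2), and the libraries of the days overlapped.

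The direction of change varied with the level of the gene, though not in 1 direction throughout. Genes were classed by their mean over the 6 libraries. Between 100 and 1000 CPM, 64.0% of 2090 genes were called higher and 20.7% lower, with a median log2 fold change of 0.35. Between 10 and 100 CPM, 52.2% of 5583 genes were higher and 30.0% lower. Between 1 and 10 CPM the balance was the other way, with 17.1% of 5195 genes higher and 57.4% lower and a median of -0.74. The most abundant class went back to more falls than rises. Of the 113 genes at 1000 CPM or more, 33 were higher and 58 lower. Falls of 8-fold or more made up 15.1% of the genes between 1 and 10 CPM and 6.14% of those between 10 and 100 CPM. They made up 2.44% between 100 and 1000 CPM and 8.85% at 1000 CPM or more. Under 1 CPM they made up 13.7%, and over all tested genes 9.82%. Under 1 CPM, 49.5% of 2227 genes were lower and 12.3% higher, but a gene this low often passed the count filter only through the day on which it was higher. Small changes were also harder to call in scarce genes, with a median SE of 0.389 under 1 CPM against 0.0829 at 10 CPM or more.

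Just 3 genes held 4.28% to 8.79% of the counts of a library, and all of them were called higher at day 6. These were the genes with the highest mean CPM over the 6 libraries, and together they took 6.84%, 6.44% and 8.79% of each total in day 6 replicates 1, 2 and 3, against 4.28%, 4.36% and 4.60% in those of day 1. The first stood at 27401, 25828 and 36435 CPM at day 6, against 20280, 21657 and 22529 CPM at day 1, a log2 change of 0.48 ± 0.13 (SE, edgeR adjusted p = 0.00733). The second rose by 1.02 ± 0.12 on the log2 scale (SE, edgeR adjusted p = 4.67e-05) and the third by 1.01 ± 0.13 (SE, edgeR adjusted p = 0.000112). Day 6 replicate 3 was the highest library for each. Without it the 3 log2 fold changes were 0.27, 0.82 and 0.80. With upper-quartile scaling the first gene was no longer called, at 0.29 (edgeR adjusted p = 0.083). The same 3 genes took 7.96% to 10.1% of the total at day 3 and 2.31% to 2.60% at day 9.

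Day 6 replicate 3 stood somewhat apart from the other day 6 libraries. Across tested genes its log2 CPM correlated with theirs at 0.983 and 0.982, and theirs with each other at 0.993. With the day 1 libraries it correlated at 0.844 to 0.849, and replicates 1 and 2 at 0.827 to 0.836. Genes are not independent replicates, so these values describe the libraries. A typical gene (the median) had an SD of 0.18 over the day 6 libraries, against 0.10 over those of day 1, in log2 CPM. Among genes lowered 2- to 8-fold, replicate 3 was the highest day 6 library in 58.3% of 2822 genes and the lowest in 21.8%, against 40.2% and 38.7% over all tested genes. Among genes lowered 8-fold or more, ties at 0 counts leave such ranks unclear. There replicate 3 lay at least 2-fold above the mean of the others in 328 of 1494 genes. It lay at least 2-fold below that mean in 311, and the median ratio was 1.04. Among the 134 genes raised 8-fold or more it was the highest in 28.4% and the lowest in 60.4%.

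In a small set of genes replicate 3 stood far above the other day 6 libraries. Of 11479 genes with a day 6 mean of at least 1 CPM, replicate 3 lay at least 4-fold above both others in 91, while replicates 1 and 2 did so in 0. For those 91 genes the median was 9.14 CPM in replicate 3, 0.953 CPM over replicates 1 and 2, and 31.6 CPM at day 1. Of the 91, 43 were called lower (47.3%, near the 41.1% over all tested genes), 1 was called higher (1.10%, against 35.8%) and 47 were not called (51.6%, against 23.1%). In 81 all day 6 libraries were below the day 1 libraries (89.0%, against 43.2%). Among the 47, 13 had falls of 8-fold or more in the fit and missed the threshold, with an edgeR adjusted p between 0.052 and 0.147. In each of the 13, replicate 3 was still below every day 1 library. Their medians were 1.75, 1.90 and 49.3 CPM in day 6 replicates 1, 2 and 3, against 165 CPM at day 1. With replicate 3 left out, 5598 genes were called higher and 6945 lower, and those lowered 8-fold or more numbered 1875 in place of 1494.

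The days that were not compared show when these levels were reached and how they went on. For this all 12 libraries were scaled together. The genes lowered 8-fold or more stood at a median of 2.14%, 1.90% and 7.70% of their day 1 mean in day 3 replicates 1, 2 and 3, and at 1.18%, 1.23% and 1.41% in those of day 6. The deep falls were thus largely in place by day 3 in these samples. Genes lowered 2- to 8-fold were at 50.9%, 49.9% and 52.6% at day 3 and at 31.6%, 31.2% and 39.5% at day 6. At day 9 the libraries parted. Replicate 1 had the deeply lowered genes at 0.612% of the day 1 mean, and replicates 2 and 3 had them at 37.4% and 43.1%. The genes lowered 2- to 8-fold stood at 31.03% in day 9 replicate 1 and at 113% and 121% in replicates 2 and 3.

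The raised genes differed in timing by the size of their rise. Set against the day 6 mean, genes raised by less than 2-fold stood at 63.9% to 65.5% at day 1 and already at 102.5% to 105.1% at day 3. Genes raised 2- to 8-fold stood at 35.4% to 36.2% at day 1 and at 81.3% to 82.5% at day 3. The genes raised 8-fold or more stood at 5.98% to 6.03% at day 1 and at 30.4% to 33.7% at day 3, so their median was well short of the day 6 level. In day 9 replicates 1, 2 and 3 they stood at 61.7%, 41.3% and 30.98%. For genes raised by less than 2-fold these values were 98.7%, 65.2% and 59.9%. The day 1 and day 6 libraries chose these genes, so their levels on those days are no separate evidence.

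**Figure D5:**
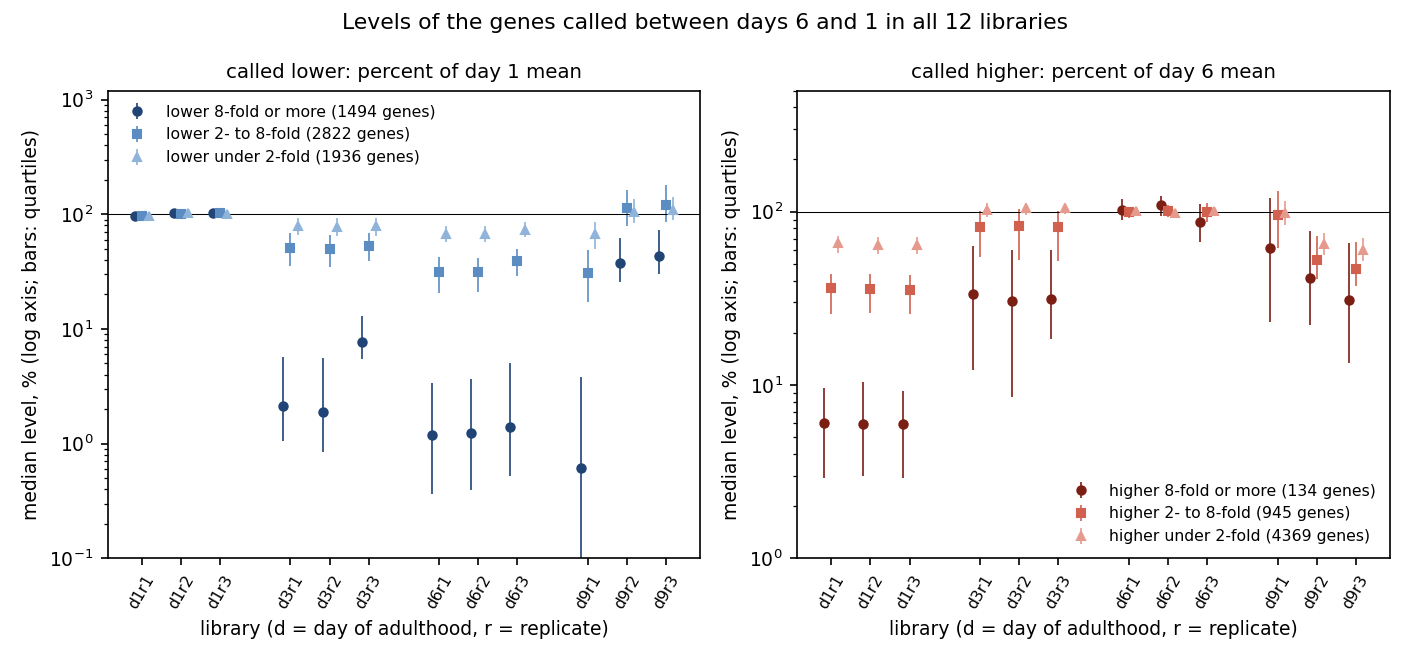
Median level of the genes called lower (left, percent of the day 1 mean) and higher (right, percent of the day 6 mean) in each of the 12 libraries, on log axes, with bars from the first to the third quartile (cut at 0.1%) and genes split by the size of the change. The deeply lowered genes lie near 1% to 8% from day 3 to day 6 and near 40% in 2 of the day 9 libraries, and the genes raised 8-fold or more are near 30% at day 3.

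Both strong changes can be followed in the named genes on the same scale of 12 libraries. WBGene00025941 was at 5.35, 3.57 and 29.4 CPM in the day 3 libraries, and at 0.0663, 301 and 381 CPM in day 9 replicates 1, 2 and 3. WBGene00026749 was at 0.171, 0.255 and 1.22 CPM at day 3 and at 0, 4.72 and 4.98 CPM at day 9. Of the raised genes, WBGene00038157 was at 0.984, 0.510 and 2.70 CPM at day 3 and back at 0.862, 0.945 and 1.35 CPM at day 9. WBGene00088302 was at 2.10, 1.15 and 1.52 CPM at day 3 and at 3.58, 6.28 and 3.25 CPM at day 9. Both raised genes thus had their highest level in libraries of day 6, although day 6 replicate 3 of WBGene00088302 lay below every day 9 library.

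For 3508 genes, 23.1% of those tested, no difference was called. Their part of the total was 15.9% ± 0.34 at day 6, against 16.6% ± 0.12 at day 1 (SD over n = 3). A missed threshold does not show that a gene stayed level. The 95% interval of the log2 fold change lay wholly within a 2-fold change either way for 2561 of them, 73.0%, and within 0.5 on the log2 scale for 1355, 38.6%. The SE had a median of 0.083 for genes at 10 CPM or more and 0.39 for genes under 1 CPM, and the smallest change called was 0.13 on the log2 scale.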

How the data were processed

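Per the labels' protocols, whole-animal RNA was isolated using Trizol and sequenced from TruSeq v2 libraries. The deposited values are raw gene-level counts. STAR, featureCounts and MultiQC are named in the submitters' processing notes. Their versions, the build, annotation and strandedness were not given in the sources used here. Hence near-identical or overlapping genes are uncertain.

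The 6 libraries of days 6 and 1 were fitted alone in edgeR 4.0.16 (R 4.3.3) after filterByExpr, which left 15208 of 23169 genes and no less than 99.9% of any library's counts. TMM factors and robust quasi-likelihood F tests were used across all genes, with 4 residual degrees of freedom and a common biological coefficient of variation of 0.122. The log2 fold change is day 6 over day 1, and its SE comes from dividing its absolute value by √F. Log2 CPM used a prior count of 2. The procedure was run on simulated counts in which few genes changed, equally up and down. That run therefore does not cover changes as many and as lopsided as those found here. The labels do not state separate cultures, so p-values reflect only how these samples varied, possibly for technical reasons. Libraries of one day differed beyond sampling noise (chi-square per degree of freedom 4.53 to 34.96). A count of 0 allows up to 0.0889 to 0.132 CPM without TMM factors, taking 3 counts as the limit. Limits and count intervals cover counting error only.

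The comparison and its rules were chosen with earlier results of these data known. The named genes are the 2 higher and 2 lower identifiers with the largest called change, no overlap between days and a mean of at least 10 CPM on the higher day. A RefSeq table of 22727 genes (assembly CB4) matched 0 identifiers, so gene lists, sequences and positions were not used here. The alternatives were 2 other scalings, 2 other filters, DESeq2 1.42.0, limma-voom (limma 3.58.1), fits with more days, a replicate block, stricter thresholds, and each library left out.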

Additional observations from a re-analysis of the deposited data

How the results depend on the processing

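Higher and lower calls at day 6 (5448 and 6252 in the fit reported) stayed within 1.5 times under each alternative but one. Asking for a log2 fold change of at least 1 left 1079 higher genes, as a rise under 2-fold then no longer counts. Leaving out single libraries gave 4981 to 5598 higher and 5714 to 6945 lower genes. DESeq2 called 5509 and 5769, limma-voom 5407 and 6341, and the fit of all 12 libraries 4647 and 4271. No gene called under an alternative had turned direction (0 in each). Genes at least 8-fold higher numbered 228 when no gene was filtered out and 83 under the stricter filter, in place of 134, since these filters change which scarce genes are tested. With upper-quartile factors 37.4% of calls were rises, in place of 46.6%.

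The day 6 and day 1 libraries share replicate numbers. Deviations of same-numbered libraries from their day means correlated across genes at 0.143, -0.00766 and 0.0726. Day 6 replicate 2 was closest to day 1 replicate 1, at 0.0643, and day 6 replicate 3 to day 1 replicate 2, at 0.0783. With 3 libraries a day these values cannot show whether same-numbered libraries shared a culture, which the labels do not state. The replicate block gave 5378 higher and 6142 lower genes. Scarce transcripts limit the precision, as the SE figures show.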

Other observations

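The top of the transcript list turned over in part. Of the 100 genes with the most counts at day 6, 68 were also among the 100 with the most at day 1. The 32 that entered the list at day 6 had a median log2 fold change of 1.04, and 30 of them were called higher. The 32 that dropped out had a median of -2.84, all 32 were called lower, and 15 of them had fallen 8-fold or more. The choice of these lists by day fixes their direction, so they describe the size of the change only.

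The 91 genes that day 6 replicate 3 kept at least 4-fold above both other day 6 libraries were chosen by these values and are given as a description. With all 12 libraries scaled together their median level, set against the day 1 mean, was 18.7%, 18.2% and 43.1% in day 3 replicates 1, 2 and 3. It was 2.60%, 2.54% and 37.4% in day 6 replicates 1, 2 and 3. At day 9 it was 0.588% in replicate 1, and 517% and 629% in replicates 2 and 3, above the level of day 1. The identifiers carry no names, so what these genes encode was not looked up.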
